A study of Danio rerio with 6 samples.

Results

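The liver transcription factors examined here were 9 zebrafish (*Danio rerio*) genes chosen by name: *hnf4a*, *hnf1ba*, *foxa2*, *foxa3*, *cebpa*, *cebpb*, *cebpd*, *prox1a* and *nr1h4*. They were looked up by gene ID among the 6502 rows of a count table that carried an ID. Of the 9 genes, 6 had a row and all 6 were tested, out of 6386 genes tested in all. No row matched *hnf4a*, *hnf1ba* or *nr1h4*, so these were not analysed here. RNA came from livers dissected at 7 days post fertilization (dpf) and pooled, 15 livers to a pool. Cr*keap1a/b* larvae (3 pools) had been injected at the one-cell stage with Cas9 and guides against *keap1a* and *keap1b*, the fish paralogs of Keap1, which holds the stress-response factor Nrf2 in check. They are crispants, so knockout is mosaic and differs between cells and larvae. WT larvae made up the other 3 pools, and the study used clutch siblings as controls. Nothing in the labels says whether the pools came from separate clutches, so p-values speak for these pools only.

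Hepatocyte identity is held by a small network of transcription factors that bind each other's regulatory regions and those of liver genes. Foxa proteins are pioneer factors that open chromatin in endoderm, nuclear receptors such as Hnf4a and Nr1h4 tie liver genes to metabolites, and C/EBP proteins drive metabolic and acute-phase genes. Prox1 is a homeodomain factor that acts in the outgrowth of the liver bud and in adult hepatocyte metabolism. Foxa and Prox1 genes are also active in the pancreas and bile ducts.

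Libraries held between 10846582 and 16666610 counts. A second code in the sample descriptions gave replicates 1 and 2 of both groups the letter a and replicate 3 of both groups the letter b, with no statement of what the letters mean. The letter b libraries stood apart: 47.9% of rows were at 0 in cr*keap1a/b* replicate 3 and 53.4% in WT replicate 3, against 2.86% to 13.3% in the 4 letter a libraries. Each factor is therefore described with all 6 libraries and with the 4 letter a libraries. The edited genes did not separate the groups. *keap1a* had 291, 307 and 0 counts in cr*keap1a/b* pools, against 375, 0 and 379 in WT pools. *keap1b* had 489, 309 and 0 counts in cr*keap1a/b* pools, against 314, 261 and 10 in WT pools. Reads were taken near the 3′ end of transcripts, where indels at a guide site need not lower the count, so these values do not check the editing. In bulk livers, fewer cells of a type and less RNA per cell cannot be told apart.

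Across the 6 measured factors, all 3 cr*keap1a/b* pools lay below all 3 WT pools for *foxa2*, *foxa3* and *prox1a* and above them for *cebpa*, and *cebpb* and *cebpd* overlapped between groups. None of the 6 passed the test at an adjusted p under 0.05 with limma-voom in all 6 libraries, and none had an unadjusted p under 0.05. EdgeR and DESeq2 also called 0 of the 6. Over all genes tested, limma-voom called 0.595% higher and 0.595% lower in cr*keap1a/b* livers, and 486 genes (7.61%) had an unadjusted p under 0.05. Every cr*keap1a/b* pool lay below every WT pool for 5.03% of all genes and above every WT pool for 8.39%. In the letter a libraries alone, *prox1a* fell (of 6456 genes tested there, 2.15% were called lower and 2.31% higher). The median log2 fold change of the 6 factors was -2.38 with all libraries and -0.996 with letter a, against 0.36 and 0.21 over all genes. Of the 6 factors, 3 were at 0 only in cr*keap1a/b* replicate 3, against 10.4% of all genes tested.

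**Figure D1:**
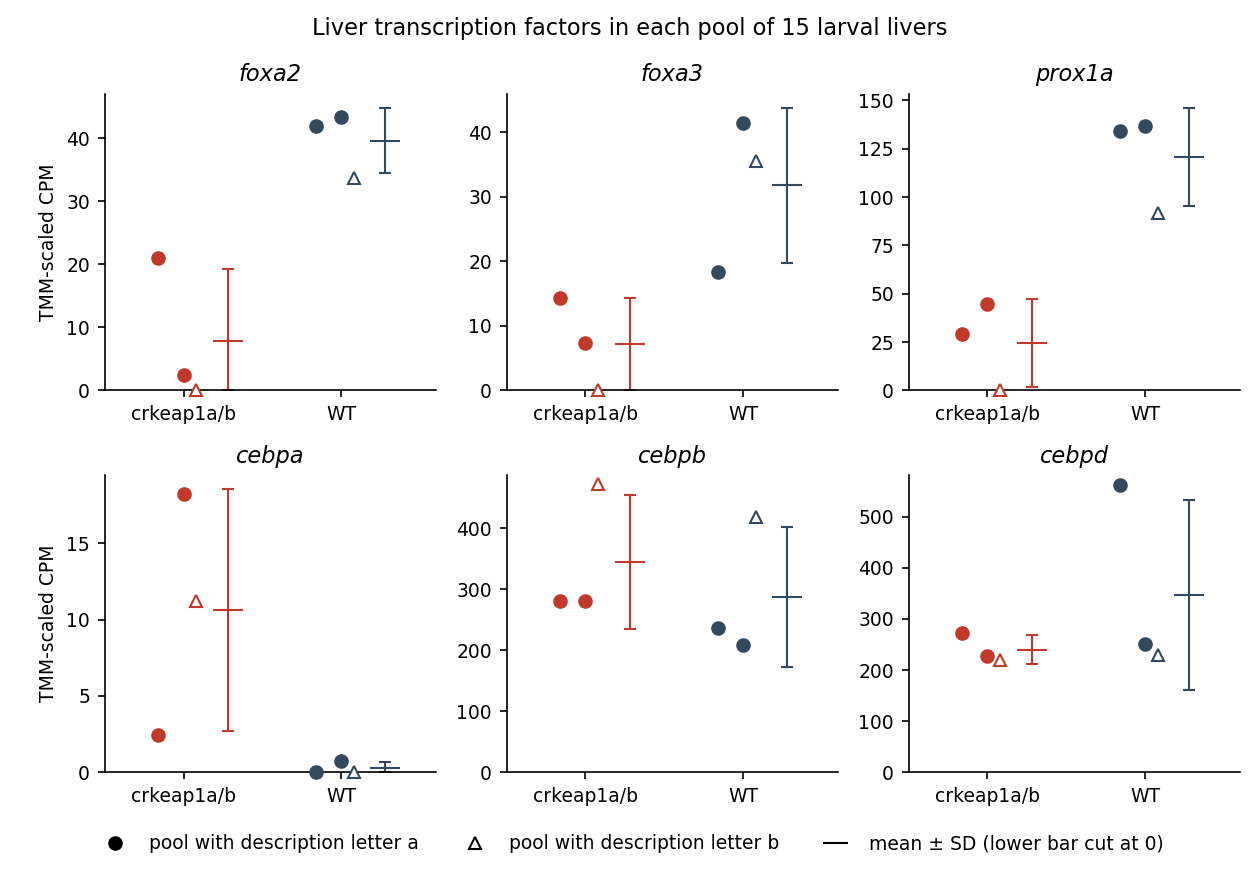
Level of each measured factor (CPM, linear axes that start at 0 and differ between panels) in each pool, with cr*keap1a/b* on the left and WT on the right. Circles are letter a pools, open triangles letter b pools, and the bar is the mean ± SD (n = 3 pools). For *foxa2*, *foxa3* and *prox1a* all 3 cr*keap1a/b* points sit below the WT points, with the triangle at 0, and for *cebpa* all 3 sit above.

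*foxa2*, which encodes the pioneer factor Foxa2, reached 20.9, 2.38 and 0 CPM (counts over the TMM-adjusted library size) in the 3 cr*keap1a/b* pools, against 41.9, 43.3 and 33.7 CPM in the WT pools. The WT pools lay close together, whereas the cr*keap1a/b* pools were spread widely and the highest of them stayed below the lowest WT pool. Means were 7.78 ± 11.5 CPM in cr*keap1a/b* livers and 39.6 ± 5.22 CPM in WT livers (SD, n = 3 each). By limma-voom the log2 fold change was -4.999 (SE 2.92, 95% interval -10.82 to 0.83, adjusted p = 0.741). In the letter a libraries, where every pool had reads, means were 11.7 CPM in cr*keap1a/b* livers and 42.6 CPM in WT livers. There the log2 fold change was -2.73 (SE 1.13, 95% interval -4.95 to -0.52), with an unadjusted limma-voom p of 0.0156 and an adjusted p of 0.199.

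*foxa3*, the Foxa paralog that in mouse liver is expressed together with Foxa2, reached 14.3, 7.31 and 0 CPM in cr*keap1a/b* pools, against 18.3, 41.5 and 35.5 CPM in WT pools. The groups did not overlap, but WT replicate 1 came within a few CPM of cr*keap1a/b* replicate 1. The means were 7.20 ± 7.15 CPM in cr*keap1a/b* livers and 31.8 ± 12.04 CPM in WT livers (SD, n = 3 each). The log2 fold change was -4.41 (SE 2.95, 95% interval -10.30 to 1.47, limma-voom adjusted p = 0.755). With letter a libraries it was -1.40 (SE 0.93, 95% interval -3.22 to 0.41, limma-voom adjusted p = 0.565), so the *foxa3* difference there was within the error.

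*prox1a*, one of the zebrafish Prox1 genes, gave the most precise difference among the non-overlapping factors. It reached 29.3, 44.9 and 0 CPM in cr*keap1a/b* pools, against 134, 137 and 91.6 CPM in WT pools. The highest cr*keap1a/b* pool was below the lowest WT pool by a wide margin, and the raw counts were 326, 565 and 0 in cr*keap1a/b* pools, against 1285, 1115 and 1573 in WT pools. Means were 24.7 ± 22.8 CPM in cr*keap1a/b* livers and 121 ± 25.4 CPM in WT livers (SD, n = 3 each). With all libraries the log2 fold change was -5.14 (SE 2.58, 95% interval -10.29 to 0.01, limma-voom adjusted p = 0.656). With letter a libraries *prox1a* fell in cr*keap1a/b* livers by a log2 fold change of -1.86 (SE 0.49, 95% interval -2.82 to -0.91, limma-voom adjusted p = 0.00497), which was the one call among the 6 factors under any setting. The call was not made with 1 library of letter b kept. Without cr*keap1a/b* replicate 3 the log2 fold change was -1.62 (limma-voom adjusted p = 0.467). Without WT replicate 3 it was -5.49 (limma-voom adjusted p = 0.395). The median of all genes was 1.61 in the first of these fits and -0.50 in the second. Relative to it *prox1a* was at -3.23 and -4.99, against -2.08 with letter a libraries.

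**Figure D2:**
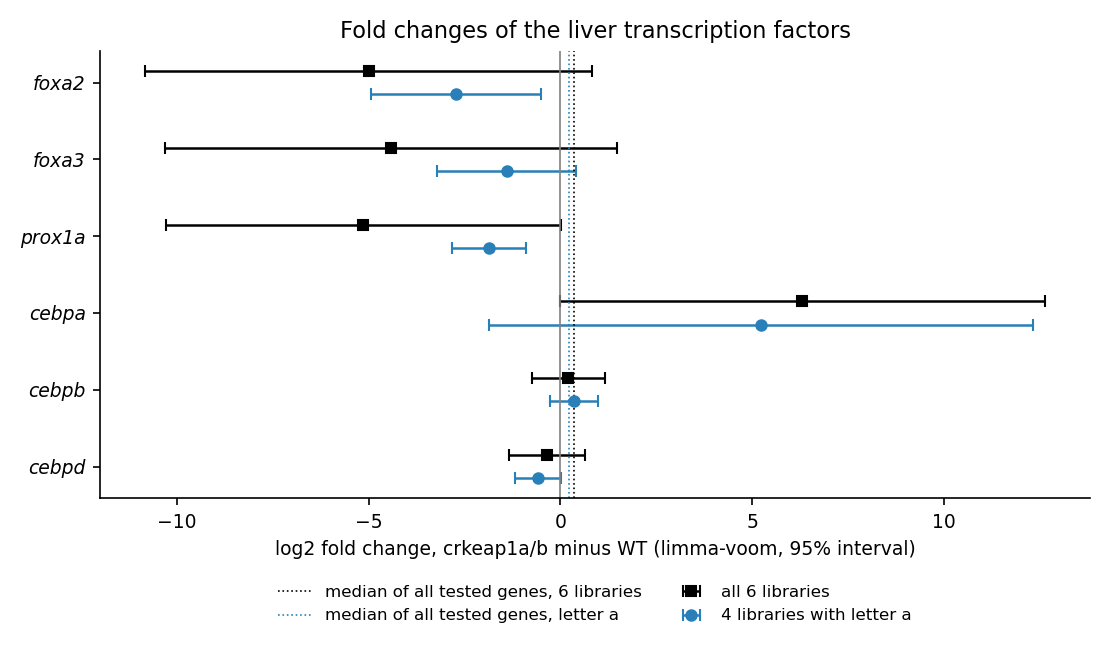
Log2 fold change (cr*keap1a/b* minus WT) of each factor by limma-voom with its 95% interval, from all 6 libraries (black squares) and from the 4 letter a libraries (blue circles). Dotted lines mark the median of all genes, 0.36 and 0.21. Intervals with all libraries reach or cross 0 for all 6 factors, and those of *foxa2* and *prox1a* from letter a libraries lie below 0.

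The 0 counts of *foxa2*, *foxa3* and *prox1a* all came from cr*keap1a/b* replicate 3. In that library 3 counts correspond to 0.269 CPM before the TMM adjustment, which bounds the level for counting error only. Zeros were common there: of 2600 genes above 0 in the other 5 libraries, 665 (25.6%) were at 0 in cr*keap1a/b* replicate 3. WT replicate 3 showed the same kind of loss, with 920 of 2855 such genes (32.2%) at 0. The share depended on level. Among genes with at least the mean CPM of *foxa3* in the other 5 libraries 16.2% were at 0 in cr*keap1a/b* replicate 3, and among those with at least that of *foxa2* 14.02% were. For *prox1a* the share was 2.75%, or 23 of 835 genes. Those shares take in all genes at higher levels. At the factors' own levels zeros in cr*keap1a/b* replicate 3 were more common. In the bin of 260 genes that held *foxa2* and *foxa3* (21.12 to 28.78 CPM) 45% were at 0. In the bin that held *prox1a* (62.99 to 97.45 CPM) 10.4% were at 0. No gene with at least the mean CPM of *cebpb* or *cebpd* was at 0 in either letter b library. Of the 665 genes at 0 only in cr*keap1a/b* replicate 3, 101 (15.2%) also had both other cr*keap1a/b* pools below every WT pool, as these 3 factors did. What part the letter b library had in the fold changes of *foxa2*, *foxa3* and *prox1a* was not tested beyond the fits without it.

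**Figure D3:**
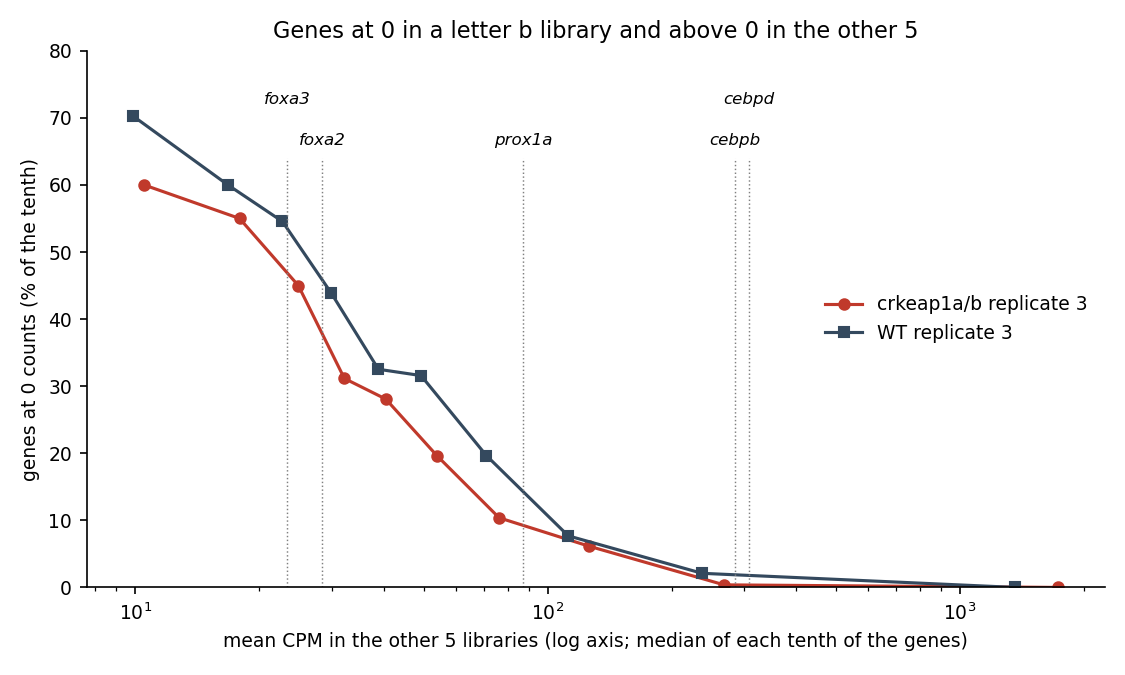
Percent of genes at 0 counts in cr*keap1a/b* replicate 3 (circles) and WT replicate 3 (squares), among genes above 0 in the other 5 libraries, in 10 bins of their mean CPM there (log axis). In cr*keap1a/b* replicate 3 the share runs from 60% in the lowest bin to 0% in the highest, and dotted lines mark the levels of the factors, with *prox1a* at 87.4 CPM.

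*cebpa*, which encodes C/EBPα, a leucine-zipper factor of hepatocyte differentiation and metabolism, ran the other way. It had 27, 229 and 169 counts in cr*keap1a/b* pools, against 0, 6 and 0 counts in WT pools. That is 2.43, 18.2 and 11.2 CPM in cr*keap1a/b* pools, against 0, 0.736 and 0 CPM in WT pools. Both letters showed the same order, and one of the WT zeros was in a letter a library. The log2 fold change was 6.30 (SE 3.17, 95% interval -0.02 to 12.62, limma-voom adjusted p = 0.656), and 5.22 in letter a libraries (SE 3.62, adjusted p = 0.581). With so few WT counts, the size of this fold change depends on the prior count of the fit. Before the TMM adjustment, all rows of the table reached at least 0.512 CPM in 3 libraries. *cebpa* could not have done so through its WT pools. A gene at this WT level could therefore be in the table only if it was higher in cr*keap1a/b* livers.

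*cebpb*, which encodes a C/EBP factor induced by cytokines and glucagon signals, was at similar levels in both groups. It reached 281, 281 and 472 CPM in cr*keap1a/b* pools, against 236, 208 and 418 CPM in WT pools. In each group the letter b pool was the highest, and the letters differed more than the groups did. Within each letter the cr*keap1a/b* pools were above the WT pools, by a log2 fold change of 0.36 in letter a (SE 0.32, 95% interval -0.27 to 0.98, limma-voom adjusted p = 0.632) and by 0.17 between the single letter b pools. With all libraries it was 0.20 (SE 0.47, 95% interval -0.75 to 1.15, limma-voom adjusted p = 0.994). Relative to the median of all genes it was -0.16, with edgeR 0.20 and with letter a libraries 0.15. Fits with 1 letter b library left out moved *cebpb* further from the median, in opposite directions. Without cr*keap1a/b* replicate 3 the fold change itself was -0.027, well below a median of all genes of 1.61. Without WT replicate 3 the fold change itself was 0.60, above a median of -0.50.

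*cebpd*, a C/EBP factor of the acute-phase response, reached 273, 228 and 220 CPM in cr*keap1a/b* pools, against 562, 252 and 229 CPM in WT pools. One library set the WT mean apart: WT replicate 1 was far above the other 5, which overlapped. Means were 240 ± 28.7 CPM in cr*keap1a/b* livers and 347 ± 186 CPM in WT livers (SD, n = 3 each). The log2 fold change was -0.35 (SE 0.49, 95% interval -1.33 to 0.63, limma-voom adjusted p = 0.980), and it was 0.04 without WT replicate 1. Relative to the median of all genes in each fit, these were -0.71 and -0.66. With letter a libraries it was -0.59 (SE 0.31, 95% interval -1.19 to 0.01, limma-voom adjusted p = 0.421).

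The pools of cr*keap1a/b* livers did not order the factors alike. Replicate 1 had more *foxa2* and *foxa3* than replicate 2, and replicate 2 had more *prox1a* and *cebpa*. Only *cebpb* and *cebpd* had reads in all 6 libraries, so the likeness of other genes was measured for these alone, over 1934 genes. The log2 CPM values of *tm6sf2a* (Pearson r = 0.996) and *alg5* (r = 0.973) followed *cebpb* most closely across the 6 libraries. For *cebpd* these were *slc6a22.2* (r = 0.956) and *actc1b* (r = 0.934). With 6 points that share the letter b split, and with 42 genes above an r of 0.9 for *cebpb* and 9 for *cebpd*, these values are a description.

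The factors have relatives in the same gene families. Of 14 listed relatives 8 were tested and 0 were called by limma-voom, edgeR or DESeq2, with 0 at an unadjusted limma-voom p under 0.05. Their median log2 fold change was -0.55 with all libraries and 0.34 with letter a libraries, so its sign turned. *foxa1*, another Foxa gene, had the same pattern as *foxa2* and *foxa3*, with 15.7, 14.5 and 0 CPM in cr*keap1a/b* pools, against 84.8, 41.0 and 69.4 CPM in WT pools. Its log2 fold change was -5.16 (SE 2.79, limma-voom adjusted p = 0.694), and -1.98 with letter a libraries (SE 0.71, adjusted p = 0.0962). *nr1h5*, a second fish gene of the farnesoid X receptor group to which *nr1h4* belongs, had 61.5, 62.4 and 119 CPM in cr*keap1a/b* pools, against 117, 120 and 110 CPM in WT pools. Its letter a pools did not overlap and its letter b pools were close (log2 fold change -0.51, SE 0.77, limma-voom adjusted p = 0.980). *cebpg* had values from 2.13 to 20.0 CPM in cr*keap1a/b* pools and from 1.104 to 69.8 CPM in WT pools. *hnf4b*, a gene of the same family as *hnf4a* that was chosen after its values were seen, had 182, 502 and 548 counts in cr*keap1a/b* pools, against 193, 181 and 0 in WT pools. Its groups overlapped.

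A wider list of 71 other hepatic regulators had 41 tested genes, of which limma-voom, edgeR and DESeq2 called 0 and 0 had an unadjusted limma-voom p under 0.05. Its 3 tested genes with the highest mean CPM overlapped between groups. *xbp1*, which encodes a factor of the unfolded protein response, averaged 438 ± 70.8 CPM in cr*keap1a/b* livers and 489 ± 268 CPM in WT livers (SD, n = 3 each). Its log2 fold change was 0.25 (SE 0.42, limma-voom adjusted p = 0.980). The cr*keap1a/b* pools were lower in letter a, but in letter b *xbp1* had 446 CPM in cr*keap1a/b* and 205 CPM in WT. *srebf1*, a regulator of lipid synthesis, averaged 126 ± 9.12 CPM in cr*keap1a/b* livers and 129 ± 74.4 CPM in WT livers. *ddit3*, a stress-induced C/EBP relative, averaged 62.8 ± 23.4 CPM in cr*keap1a/b* livers and 122 ± 76.2 CPM in WT livers. In 3 of the 41 genes every cr*keap1a/b* pool lay below every WT pool, and in 0 every pool lay above. Over all genes these shares were 5.03% and 8.39%. One of the 3, chosen after its values were seen, was *hhex*, a homeobox gene of early liver and pancreas outgrowth. It had 14.02, 11.4 and 0 CPM in cr*keap1a/b* pools, against 72.2, 31.8 and 90.1 CPM in WT pools (log2 fold change -5.36, SE 2.83, limma-voom adjusted p = 0.685). Its log2 fold change was -1.95 with letter a libraries (SE 0.78, limma-voom adjusted p = 0.171). Without cr*keap1a/b* replicate 3 it was -2.39, in a fit where the median of all genes was 1.61.

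Genes of liver functions in which these factors act were taken as lists. Not every listed gene is a known target: *stat3* and *nr0b2a*, for example, are also among the other hepatic regulators. The lists were chosen with earlier results of these data known, so their counts do not test whether targets of the factors changed. Among 26 tested genes of liver metabolism 7 fell and 0 rose in cr*keap1a/b* livers by limma-voom, with a median log2 fold change of -0.53, and 12 of the 26 were lower in every cr*keap1a/b* pool. Over all genes 0.595% were called lower and 0.595% higher, and 5.03% were lower in every cr*keap1a/b* pool. *hpda*, an enzyme of tyrosine breakdown, averaged 12990 ± 1642 CPM in cr*keap1a/b* livers and 23560 ± 3382 CPM in WT livers (log2 fold change -0.76, SE 0.05, limma-voom adjusted p = 4.09e-18). *cyp3a65*, a cytochrome P450, had a log2 fold change of -1.84, *agxtb* and *agxta*, which detoxify glyoxylate, of -1.42 and -0.96, and *fabp10a*, the liver fatty acid-binding protein, of -0.49. Of the 26, 8 fell with letter a libraries. The count rests on the method, being 1 with edgeR, 3 with DESeq2, 4 with limma-trend, 4 with the letter as covariate and 1 with either replicate block. It also changed with the libraries: it was 0 without cr*keap1a/b* replicate 2, 0 without WT replicate 1 and 1 without WT replicate 2. Those fits called only 1, 1 and 4 genes in all, so their low counts do not speak for this list in particular.

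Among 42 tested genes for secreted liver proteins 2 rose and 2 fell by limma-voom, with a median log2 fold change of -0.27. *apoa1a* (1.13, SE 0.28) and *apoc1* (1.08, SE 0.16), both apolipoproteins, rose in cr*keap1a/b* livers on the log2 scale. *apoa1b*, the other Apoa1 gene, fell by 0.60 (SE 0.04) and *fetub*, a fetuin, fell by 1.46 (SE 0.13). The pools of *apoa1b* and *apoc1* overlapped between groups, and those of *apoa1a* and *fetub* did not. Within each letter, however, the cr*keap1a/b* pools were below the WT pools for *apoa1b* and above them for *apoc1*. EdgeR called 0 higher and 0 lower, DESeq2, limma-trend and the fit with the letter as covariate each called 0 higher and 2 lower, and the replicate block called 0 higher under either numbering. Without WT replicate 3, 8 of the 42 were called lower, and with letter a libraries 10 were. The count of 2 higher was 4 without cr*keap1a/b* replicate 3 and 1 without cr*keap1a/b* replicate 1. It was 0 without cr*keap1a/b* replicate 2, WT replicate 1 or WT replicate 2. The count of 2 lower was 1 without cr*keap1a/b* replicate 2 or WT replicate 1. Over all genes the fits without cr*keap1a/b* replicate 2, WT replicate 1 and WT replicate 2 called only 1, 1 and 4 genes.

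Bile acid genes are the list closest to *nr1h4*, and acute-phase genes that closest to *cebpb* and *cebpd*. Of 16 tested genes of bile acid synthesis and transport limma-voom called 0, with 3 at an unadjusted p under 0.05, edgeR called 0 and DESeq2 called 1. The median log2 fold change was -0.35. Limma-voom with letter a libraries called 1 higher and 3 lower, against 2.31% and 2.15% of all genes. The higher one was *abcc2*, a canalicular export pump, with 269, 141 and 294 CPM in cr*keap1a/b* pools, against 14.1, 48.5 and 56.8 CPM in WT pools. Its log2 fold change was 2.97 with letter a libraries (SE 0.58, limma-voom adjusted p = 2.21e-05) and 2.57 with all libraries (SE 1.04, adjusted p = 0.372). The lower ones were *slco1d1*, *slc27a2a* and *scp2a*, at -0.89, -0.92 and -0.86 on the log2 scale. Between the letter b pools *scp2a* ran the other way, with 349 CPM in cr*keap1a/b* and 299 CPM in WT. Its paralog *scp2b* had 33.9, 57.3 and 66.8 CPM in cr*keap1a/b* pools, against 20.1, 8.83 and 0 CPM in WT pools (limma-voom adjusted p = 0.712). *abcc2*, *scp2a* and *scp2b* were chosen after their values were seen. *cyp7a1*, the rate-limiting enzyme of bile acid synthesis, averaged 565 ± 249 CPM in cr*keap1a/b* livers and 713 ± 475 CPM in WT livers. *slc27a2a*, which encodes a fatty acid transport protein, was lower in every cr*keap1a/b* pool and narrowly missed the threshold (log2 fold change -1.30, SE 0.37, limma-voom adjusted p = 0.0539). Of 21 tested acute-phase genes 1 rose and 1 fell by limma-voom. *crp2*, a pentraxin, had a log2 fold change of 0.91 (SE 0.14, limma-voom adjusted p = 7.35e-06), and *hamp*, the iron hormone hepcidin, one of -1.42 (SE 0.37, limma-voom adjusted p = 0.0280). The pools of *crp2* overlapped between groups, and those of *hamp* did not. Within each letter the cr*keap1a/b* pools of *crp2* were above the WT pools. Neither *crp2* nor *hamp* was called by edgeR, by limma-trend or with either replicate block. DESeq2 called 0 acute-phase genes higher and 1 lower. The fit with the letter as covariate called 1 higher and 0 lower. *crp2* was not called without cr*keap1a/b* replicate 2 or without any 1 WT library. *hamp* was not called without cr*keap1a/b* replicate 1, cr*keap1a/b* replicate 2, WT replicate 1 or WT replicate 2. Over all genes the fits without cr*keap1a/b* replicate 2, WT replicate 1 and WT replicate 2 called only 1, 1 and 4 genes.

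**Figure D4:**
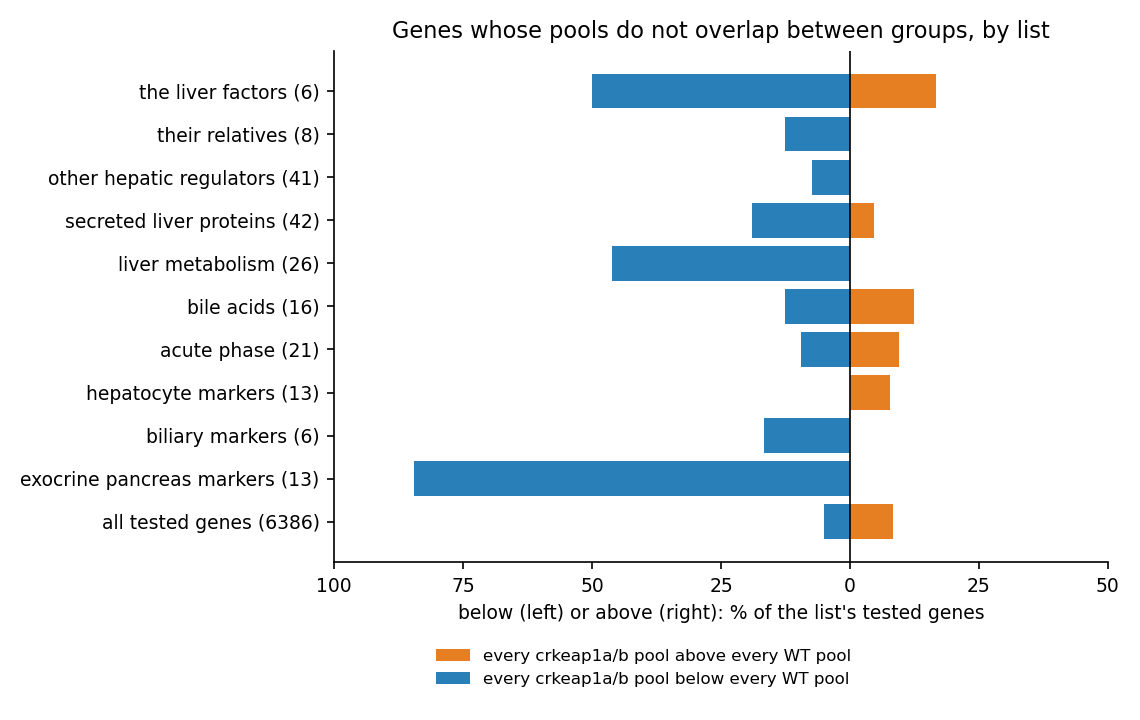
Percent of the tested genes of each list (number in brackets) whose cr*keap1a/b* pools all lie below (left, blue) or all above (right, orange) every WT pool. Over all genes 5.03% are below and 8.39% above; 3 of 6 liver factors, 12 of 26 metabolic genes and 11 of 13 exocrine pancreas markers are below.

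Markers of several cell types, also chosen with earlier results of these data known, were measured beside the factors. Hepatocyte markers, 13 of 14 tested, summed to between 33440 and 72430 CPM in cr*keap1a/b* livers and between 48210 and 97510 CPM in WT livers. Within each letter these sums were lower in cr*keap1a/b* livers. All 13 are also in the lists of secreted liver proteins or liver metabolism, so they are not a separate measure of hepatocytes. By limma-voom 1 of the 13, *fabp10a*, fell, a call already counted in the metabolism list. The pools of *fabp10a* overlapped between groups across letters, but within each letter the cr*keap1a/b* pools were below the WT pools. *fabp10a* was called neither by edgeR nor by DESeq2, nor without cr*keap1a/b* replicate 2, cr*keap1a/b* replicate 3, WT replicate 1 or WT replicate 2. The fits without cr*keap1a/b* replicate 2, WT replicate 1 and WT replicate 2 called only 1, 1 and 4 genes in all. Of the 13, 4 fell with letter a libraries. Biliary markers (6 of 10 tested, 0 called by limma-voom, edgeR or DESeq2, 1 at an unadjusted limma-voom p under 0.05) summed to between 756 and 1092 CPM in cr*keap1a/b* livers and between 1171 and 1689 CPM in WT livers. Most of each sum was *anxa4*, with 980, 836 and 691 CPM in cr*keap1a/b* pools, against 1278, 1538 and 1115 CPM in WT pools. The other 5 markers overlapped between groups. *sox9b* ran the other way with letter a libraries (log2 fold change 1.70, SE 0.76, limma-voom adjusted p = 0.259). Exocrine pancreas markers moved with the group. Of 18, 13 were tested and 8 fell, against 0.595% of all genes, with a median log2 fold change of -1.59. Their sum was between 8631 and 12280 CPM in cr*keap1a/b* livers and between 25790 and 40480 CPM in WT livers. For *prss1*, a trypsinogen, limma-voom gave a log2 fold change of -1.45 (SE 0.15), and for *ela3l*, an elastase, -1.52 (SE 0.24). Of the 13, 10 fell with letter a libraries. The count was 9 with DESeq2, 2 with edgeR, 1 with the letter as covariate and 0 with either replicate block. It was 4 without cr*keap1a/b* replicate 1 and 0 without cr*keap1a/b* replicate 2, WT replicate 1 or WT replicate 2. Those last fits called few genes of any kind, as given above. The 2 endocrine pancreas markers with tests, *sst1.1* and *sst2*, summed to between 0 and 28.6 CPM in cr*keap1a/b* livers and between 56.8 and 253 CPM in WT livers. With all libraries limma-voom, edgeR and DESeq2 called 0 of them, with 0 at an unadjusted limma-voom p under 0.05, and with letter a libraries *sst1.1* fell (log2 fold change -3.01, SE 0.97, limma-voom adjusted p = 0.0426). Erythrocyte markers ran the other way. Of 9, 8 were tested and 7 had a positive log2 fold change, with a median of 1.29. Their sum was between 676 and 2340 CPM in cr*keap1a/b* livers and between 533 and 665 CPM in WT livers. With all libraries limma-voom, edgeR and DESeq2 called 0 of the 8, with 1 at an unadjusted limma-voom p under 0.05. With letter a libraries the globin genes *hbae3* (log2 fold change 1.92, SE 0.30, limma-voom adjusted p = 4.48e-08) and *hbbe1.3* (1.68, SE 0.36, adjusted p = 0.000232) rose. Over all libraries the pools of both overlapped between groups. Between the letter b pools *hbbe1.3* ran the other way, with 140 CPM in cr*keap1a/b* and 156 CPM in WT. *foxa2*, *foxa3* and *prox1a* moved in the same direction as the pancreas markers. Median log2 fold changes were also negative for biliary (-0.58), hepatocyte (-0.39), stellate (-3.94, 2 tested) and intestine (-0.17) markers. With letter a libraries these were -0.63, -0.47, -0.49 and 1.55, so the sign turned for intestine. *cebpa* had the same direction as the erythrocyte markers, but this carries no weight. At its WT level it could be in the table only if it was higher in cr*keap1a/b* livers. The 2 tested macrophage markers had a median of 3.27 with 0 called, but *spi1b* averaged 2.08 CPM in cr*keap1a/b* livers and 13.99 CPM in WT livers. Endothelial markers had a median of 0.06 with all libraries and -0.18 with letter a libraries. The part of any of these cell types in the values of the factors was not tested.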

How the data were processed

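The authors prepared QuantSeq 3′ libraries from 6 pools of 15 livers, removed adapters with cutadapt 1.16, mapped to GRCz11 (danRer11) with STAR 2.7.5b and assigned reads to genes with featureCounts 1.6.3, per the methods and the submitters' processing notes. The deposited values are raw counts under Entrez gene IDs in 6637 rows. Of these, 6502 carried an ID and 6426 of those IDs were given a symbol from RefSeq gene tables, used for names only. Rows without an ID held 9.82% to 13.6% of counts and were left out. Genes passing filterByExpr were fitted by limma-voom on TMM-scaled counts, the group being the single term (limma 3.58.1, edgeR 4.0.16, R 4.3.3). Limma-voom draws on all genes tested for the error of each, so an SE can be smaller than the spread of that gene's own pools. P-values were adjusted by Benjamini-Hochberg over all genes tested and called under 0.05. EdgeR's quasi-likelihood test and DESeq2 1.42.0 were alternatives, and the scripts were tested on simulated data. Counts were not scaled by length, so where genes were grouped or picked by mean CPM this is an order of reads per gene, not of transcripts.

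The factors, lists and markers were chosen with earlier results of these data known. Genes named were the 9 factors, *keap1a*, *keap1b*, the called genes (up to 6) and those with the highest mean CPM (up to 3) of each list and marker set, and for factors above 0 in all libraries the 2 genes with the highest correlation of log2 CPM (prior count 2). Not all of the list genes this allows are printed.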

Additional observations from a re-analysis of the deposited data

How the results depend on the processing

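The call of *prox1a* was the exception among the 6 factors: 1 factor was called lower with letter a libraries, and 0 in either direction under the other 17 alternatives. The direction held for *foxa2*, *foxa3*, *prox1a* and *cebpa* in every alternative that gave a value, and only genes above 0 in all libraries gave none for these 4. For *cebpa* this carries no weight, because a gene at its WT level could be in the table only if it was higher in cr*keap1a/b* livers. Leaving out 1 library each moved *cebpb* between -0.027 and 0.60, *cebpd* between -0.68 and 0.037, *keap1a* between -3.37 and 2.62 and *keap1b* between -3.47 and 3.07 (log2). With letter a libraries *keap1a* stood at 3.91 and *keap1b* at 0.016, and *keap1b* was 0.066 with edgeR and 0.001 with DESeq2. The median of all genes was 0.36 with TMM, 0.57 with library size only, 0.06 with edgeR and 0.02 with DESeq2. It was -0.03 with genes above 0 in all libraries.

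Over all genes, 38 were called higher and 38 lower. The counts higher and lower were 16 and 6 with edgeR, 16 and 22 with genes above 0 in all libraries, 149 and 139 with letter a libraries, and 7 and 10 with the letter as covariate. DESeq2 called 101 higher, RLE factors 9, rows without a gene ID kept 24, and limma-trend called 22 lower. Leaving out 1 library each gave 0 to 125 higher and 1 to 71 lower. The 3 fits with 0 higher had 1 gene (without cr*keap1a/b* replicate 2), 4 genes (without WT replicate 1) and 14 genes (without WT replicate 2) at an unadjusted limma-voom p under 0.05. The replicate block gave 1 higher and 2 lower by title number, and 2 higher and 3 lower by description code. Deviations from group means correlated at 0.01 to 0.07 between same-numbered pools and at 0.04 to 0.07 between pools of one code. The numbers were not taken to pair the samples. These correlations cannot show that the pools were unpaired. The replicate 3 pools correlated at only 0.07, although they share the letter b and its many zeros. The replicate block called 0 of the 6 factors. The causes of these differences were not tested. Zeros in the letter b libraries limit what can be said of *foxa2*, *foxa3* and *prox1a*.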
